A study of Mus musculus with 12 samples.

Results

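Liver was compared with cerebellum on arrays whose RNA had been linearly amplified 3 times (3X). The comparison takes in 6 of the 12 arrays of the study, 3 of liver and 3 of cerebellum, picked by their titles. All RNA came from frozen tissue of 1 mouse, an adult of the NMR-1 strain, and the labels name no allele or treatment. For each 3X array, 1 ng of total RNA was amplified with the RiboAmp HS kit, labelled with biotin and hybridised to the Affymetrix array MG_U74Av2, which measures a transcript with a set of short probes (a probe set). The 3 arrays of a tissue are technical replicates of that animal, so every SE and p-value below measures only the spread between arrays and carries nothing about other mice. The 3 cortex arrays at 3X are used as context and add to the estimate of the spread. A further array each of liver and cerebellum, made from 5 µg of RNA with 1 amplification (1X), is set beside the 3X values. In whole tissue, fewer cells of a type and less RNA per cell cannot be told apart.

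Hepatocytes make most proteins of the blood plasma, turn ammonia into urea, and handle lipids, bile acids and foreign compounds. Their enzymes are laid out along the axis of the liver lobule, from the periportal side, where blood enters, to the pericentral side, where it leaves. The cerebellar cortex is built from very many small granule cells, which use glutamate, and from large Purkinje cells, which send its inhibitory output, together with Bergmann glia, other astrocytes and the oligodendrocytes that wrap axons in myelin. Genes that mark these cells are known from other work and are used below as lists.

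The deposited values are log2 signals, and every difference below is liver minus cerebellum on the log2 scale with its SE from limma. Of 12422 probe sets tested, 2059 (16.6%) were called, meaning a Benjamini-Hochberg adjusted p under 0.05. Of these, 792 (6.38%) were higher in liver and 1267 (10.2%) higher in cerebellum. A call together with at least a 2-fold difference was reached by 661 (5.32%), 269 (2.17%) of them higher in liver and 392 (3.16%) higher in cerebellum. The liver genes were fewer and further apart: their median difference was 1.87 and the largest 8.89, against a median size of 1.44 and a largest size of 7.29 for the cerebellum genes. At least a 4-fold difference was seen for 128 called probe sets higher in liver and 89 higher in cerebellum. The 3 liver arrays did not overlap the 3 cerebellum arrays in 3726 probe sets (30.0%), so a lack of overlap alone was common. The median signal was 3.45, and in 336 of the 661 the tissue with less signal lay below it. RMA gives no detection call, so no linear fold is given where the lower tissue lay below that median. A log2 difference given for such a gene rests on a signal not shown to be above background.

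**Figure D1:**
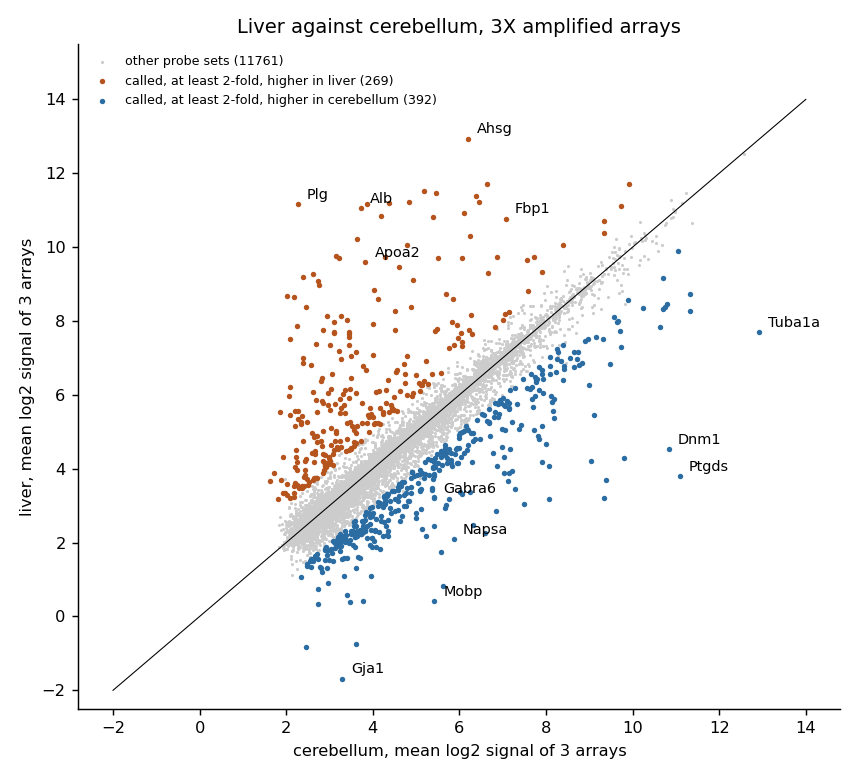
Mean log2 signal in liver (vertical axis) against cerebellum (horizontal axis) for each of 12422 probe sets, 3 arrays a tissue, with the line of equal signal. The 269 probe sets called and at least 2-fold higher in liver reach further from the line than the 392 higher in cerebellum, up to a difference of 8.89 for Plg.

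The liver arrays were less alike than the cerebellum arrays, and this touches most results on liver genes. Across all probe sets, which are not independent, Pearson's r was 0.990 between liver replicates 1 and 2, and 0.977 and 0.979 between each of them and replicate 3. Between cerebellum arrays it was 0.992 to 0.994. Among the 128 probe sets at least 4-fold higher in liver, replicate 3 was the highest liver array in 104 and replicate 2 in 0, with replicate 2 the lowest in 90. The median deviation from the liver mean was 0.52 in replicate 3, -0.35 in replicate 2 and -0.15 in replicate 1. For probe sets at least 2-fold higher in liver the median SD was 0.459 over the liver arrays and 0.129 over the cerebellum arrays. The fit uses a spread common to the 3 tissues, so the SE of these genes is smaller than the liver arrays alone would give. The part of this difference between liver arrays in any single gene's result was not tested, but the counts of calls, the list counts and the named probe sets were recomputed without each array.

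Proteins that hepatocytes release into the blood were among the genes with the largest differences. Of 31 measured genes on a list of plasma proteins and carriers, 24 were higher in liver and 0 higher in cerebellum, with a median difference of 1.57. Over all 8251 genes, each taken at its brightest probe set, 17.8% were called, 6.87% higher in liver and 10.9% higher in cerebellum, and the median difference was 0.01. The lists are groups known from other work, but members and lists were chosen with earlier results of these data known. Their counts are therefore not independent evidence and are read only against these shares.

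Albumin (Alb), the main protein of plasma and a carrier of fatty acids and hormones, had signals of 11.04, 10.39 and 11.72 in liver and 3.79, 3.61 and 3.76 in cerebellum. The groups lay far apart, and albumin was 161-fold higher in liver (7.33 ± 0.26, limma adjusted p = 1.36e-08). Fetuin-A (Ahsg), which keeps calcium phosphate in solution, had 13.18, 12.61 and 13.01 in liver against 6.32, 6.22 and 6.04 in cerebellum (6.74 ± 0.14, 107-fold). Rbp4, the carrier of retinol, stood at 11.81, 11.35 and 11.98 against 6.46, 6.73 and 6.74 (5.07 ± 0.19, 33.6-fold). Hemopexin (Hpx), which binds free heme, reached 9.42, 8.83 and 9.31 in liver and stayed dim in cerebellum at 2.49, 2.20 and 2.49 (difference 6.79 ± 0.15). Ambp, the precursor of a lipocalin and of a protease inhibitor, was dim in cerebellum too, with 8.08, 8.08 and 8.96 against 2.40, 2.49 and 2.45 (5.92 ± 0.20). In all 5 genes every liver array lay above every cerebellum array.

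The clotting system followed the same direction. Of 23 measured genes of coagulation and fibrinolysis, 16 were higher in liver and 1 higher in cerebellum, with a median of 1.18. Plasminogen (Plg), the precursor of the protease that dissolves clots, had 10.95, 10.57 and 11.96 in liver against 2.17, 2.35 and 2.30 in cerebellum. This was the largest fitted difference, with the cerebellum signal below the median level (8.89 ± 0.28, adjusted p = 7.00e-09). The 3 chains of fibrinogen, the protein of the clot itself, were all higher in liver, Fgg by 4.86 ± 0.15, Fgb by 3.95 ± 0.34 and Fga by 3.53 ± 0.17. Fgb shows the unequal liver arrays, with 6.66 and 6.67 in replicates 1 and 2 and 8.20 in replicate 3. The exception was Plat, the tissue plasminogen activator, which is also made by neurons and endothelium, with a difference of -0.42.

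Protease inhibitors gave large differences in few families. Of 17 measured serpins and other inhibitors, 9 were higher in liver and 2 in cerebellum, with a median of 0.71. The α1-antitrypsins, which restrain neutrophil elastase, were among the largest: Serpina1b by 6.57 ± 0.14 (94.7-fold), Serpina1c by 6.01 ± 0.13 (64.5-fold) and Serpina1e by 5.43 ± 0.12 (43.1-fold). These near-identical copies are measured by probe sets whose suffix marks shared probes, so their signals cannot be assigned to a single copy. Pzp, a broad trap for proteases, had 11.83, 10.55 and 11.76 in liver against 6.41, 6.38 and 6.37 in cerebellum (4.99 ± 0.27, 31.8-fold). The 2 inhibitors higher in cerebellum were cystatin C (Cst3, -2.60 ± 0.16), an inhibitor of cysteine proteases released by glia, and neuroserpin (Serpini1, -1.63 ± 0.20), which is made by neurons. With probe sets without a suffix, 4 members in place of 9 were higher in liver.

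The complement genes were higher in liver or not called. Of 17 measured genes, 8 were higher in liver and 0 in cerebellum, with a median of 0.38. Cfi, the protease that inactivates C3b, had liver signals of 5.73, 6.51 and 8.21 and cerebellum signals of 2.50, 2.73 and 2.49 (4.24 ± 0.47). C9, which forms the membrane pore, was higher by 2.09 ± 0.17. The mannose-binding lectin Mbl2 and C4bp did not pass: Mbl2 had 6.31, 6.20 and 7.70 in liver against 5.76, 5.93 and 5.55 (0.99 ± 0.32, adjusted p = 0.06), and C4bp 2.71, 2.86 and 4.44 against 2.34, 2.42 and 2.35 (0.97 ± 0.35, adjusted p = 0.100). In both, liver replicate 3 stood alone above the other liver arrays. Without it the difference was smaller but called, 0.51 for Mbl2 and 0.41 for C4bp. Without cerebellum replicate 2, or without replicate 3, 5 complement genes in place of 8 were higher in liver.

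Enzymes of the urea cycle and of amino acid breakdown formed the next group, with 15 of 22 measured genes higher in liver, 0 higher in cerebellum and a median of 0.86. Otc, which joins carbamoyl phosphate to ornithine, had a mean of 11.52 ± 0.51 in liver (SD, n = 3 arrays) against 5.19 ± 0.07 in cerebellum, a difference of 6.33 ± 0.20 (SE, 80.2-fold). Cps1, which starts the cycle, differed by 4.62 ± 0.30 and Arg1, which releases urea, by 4.47 ± 0.14 (22.2-fold). Bhmt, which remakes methionine from betaine, had 9.66, 9.22 and 10.23 against 3.06, 3.11 and 3.47 (6.49 ± 0.21). No array of liver overlapped cerebellum in these 4 genes.

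Lipid handling was strongly on the liver side. Of 33 measured genes of lipid transport, bile acids and fatty acid oxidation, 21 were higher in liver and 0 in cerebellum, with a median of 1.03. Fabp1, which carries fatty acids in the hepatocyte cytosol, had 10.74, 10.80 and 11.97 in liver against 3.91, 3.83 and 3.83 (7.31 ± 0.26, 159-fold). Of the apolipoproteins, Apoa1 of HDL was 112-fold higher (6.81 ± 0.16), and Apob, the structural protein of VLDL and LDL, 44.0-fold higher (5.46 ± 0.29). Apoa2, also of HDL, had closely spaced liver arrays, 9.63, 9.51 and 9.65 against 3.87, 3.76 and 3.86 (5.77 ± 0.08, 54.5-fold).

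Peroxisomes, which shorten very long fatty acids and break down urate in mice, gave 12 of 30 measured genes higher in liver and 0 higher in cerebellum, with a median of 0.21. Without cerebellum replicate 1, or without replicate 3, 7 in place of 12 were higher in liver. Urate oxidase (Uox) had 5.44, 5.91 and 8.37 in liver and 3.15, 3.02 and 3.01 in cerebellum (3.51 ± 0.57, adjusted p = 0.00167), so a single liver array carried much of its size. Phyh, which starts the breakdown of branched fatty acids, differed by 2.12 ± 0.28, the sterol carrier Scp2 by 1.66 ± 0.19 and the thiolase Acaa1a by 1.53 ± 0.25.

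Cytochromes P450, which oxidise drugs, steroids and fatty acids, were higher in liver for 19 of 28 measured genes and higher in cerebellum for 0, with a median of 0.47. Cyp2d10 had 9.02, 8.85 and 9.39 in liver against 2.89, 2.54 and 2.73 (6.36 ± 0.14). Cyp2c39 differed by 4.87 ± 0.15, Cyp3a11 by 4.59 ± 0.42 and Cyp1a2 by 4.12 ± 0.14. In 17 of the 28 genes the tissue with less signal lay below the median level. Akr1c6, a hydroxysteroid dehydrogenase outside this family, behaved alike with 8.34, 8.06 and 9.50 against 2.09, 2.23 and 2.23 (6.45 ± 0.29).

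Both ends of the lobule were represented, by different counts. Of 14 measured periportal genes, 10 were higher in liver and 0 in cerebellum, with a median of 2.70, and Igf1, the growth factor that liver sends into the blood, was among them at 4.83 ± 0.22 (28.4-fold). Of 15 measured pericentral genes, 7 were higher in liver and 2 in cerebellum, with a median of 0.25. The pericentral genes with the largest differences were Cyp1a2, Cyp2e1 of ethanol oxidation (2.40 ± 0.20), Lect2 (2.08 ± 0.14) and the glutathione transferase Gstm3 (1.08 ± 0.10, 2.12-fold). The 2 that were higher in cerebellum were glutamine synthetase (Glul, -0.60), which astrocytes also use to clear glutamate, and the neutral amino acid transporter Slc1a4 (-0.40). Each list holds genes that other tissues use too, and the difference between the lists was not tested.

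Regulators of the hepatocyte programme were called in a few cases. Of 22 measured liver transcription factors and nuclear receptors, 6 were higher in liver and 0 in cerebellum, with a median of 0.13. The xenobiotic receptor CAR (Nr1i3) had 7.47, 7.37 and 7.79 in liver against 6.27, 5.97 and 5.68 in cerebellum (1.57 ± 0.15, 2.97-fold). Cebpa, a factor that keeps hepatocytes differentiated, followed at 0.91 ± 0.10, Nr2f6 at 0.90 ± 0.10 and the fatty acid receptor Ppara at 0.82 ± 0.15. The oxysterol receptor Nr1h3 (0.79) and Onecut1 (0.32) completed the 6. On the 1X arrays the median of the same list was 1.03, and Cebpa stood at 9.40 in liver and 6.08 in cerebellum.

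Carbohydrate metabolism split by isozyme. Of 12 measured liver-type isozymes and transporters, 5 were higher in liver and 0 in cerebellum, while of 27 measured brain-type or broadly used ones 1 was higher in liver and 11 in cerebellum. The medians were 0.23 and -0.34. Fbp1, an enzyme of gluconeogenesis, had 10.74, 10.37 and 11.20 against 6.79, 6.90 and 7.50 (3.70 ± 0.22, 13-fold). The glucose transporter Slc2a2 (GLUT2) was higher by 1.42 ± 0.30, the glucose-6-phosphatase G6pc by 1.14 ± 0.10, its transporter Slc37a4 by 0.82 ± 0.16 and Gpd1 by 0.34. On the cerebellar side, aldolase C (Aldoc) had 3.35, 3.50 and 3.60 against 0.34, 0.49 and 0.34 in liver (-3.09 ± 0.09). Aldolase A (Aldoa) differed by -2.74 ± 0.09 (6.66-fold), the neuronal enolase Eno2 by -1.98 ± 0.19 and brain creatine kinase (Ckb) by -1.76 ± 0.13. The muscle glycogen synthase Gys1 was the single member of that list higher in liver, by 0.35, and without cerebellum replicate 1 there was 0.

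Genes of protein synthesis and export were mostly not called. In the secretory pathway of the endoplasmic reticulum 7 of 52 measured genes were higher in liver and 5 in cerebellum, with a median of 0.01. The summed linear signal of this list was 2870 to 3712 in the liver arrays and 2677 to 2731 in the cerebellum arrays. On the 1X arrays its median difference was 0.37. The counts rested on single arrays: without cerebellum replicate 2 they were 4 in liver and 1 in cerebellum, and the cerebellum count was 1 without liver replicate 2 and 2 without liver replicate 1 or cerebellum replicate 3. The translocon subunit Sec61a1 was higher in liver by 1.40 ± 0.18 (2.64-fold) and the prolyl isomerase Ppib by 1.11 ± 0.14, while Srp14 of the signal recognition particle differed by -0.91 ± 0.25 (adjusted p = 0.0339). Of 31 measured cytosolic ribosomal protein genes, 0 were higher in liver and 6 in cerebellum, with a median of -0.11. Their summed linear signal was 4034 to 4655 in the liver arrays and 4973 to 5213 in the cerebellum arrays, and their median difference at 1X was 0.04. The cerebellum count was 14, with 2 higher in liver, when liver replicate 3 was left out. It was 2 without liver replicate 1 or 2 or cerebellum replicate 3, and 3 without cerebellum replicate 1. The liver arrays disagreed on several of these. Rps10 had 5.31, 6.71 and 8.57 in liver and 8.03, 8.40 and 8.96 in cerebellum (-1.60 ± 0.65, adjusted p = 0.138), and it was called at -2.45 without liver replicate 3 and stood at -0.82 without replicate 1. Rps3a1 was called at -1.57 ± 0.46 (adjusted p = 0.0438), and that call was lost in 9 of the alternatives, with an adjusted p of 0.141 without liver replicate 1, 0.147 without liver replicate 2 and 0.102 to 0.128 without a cerebellum array. The call of Srp14 was lost too, with an adjusted p of 0.111 without liver replicate 1, 0.0856 without liver replicate 2, 0.110 without cerebellum replicate 2 and 0.127 without cerebellum replicate 3.

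**Figure D2:**
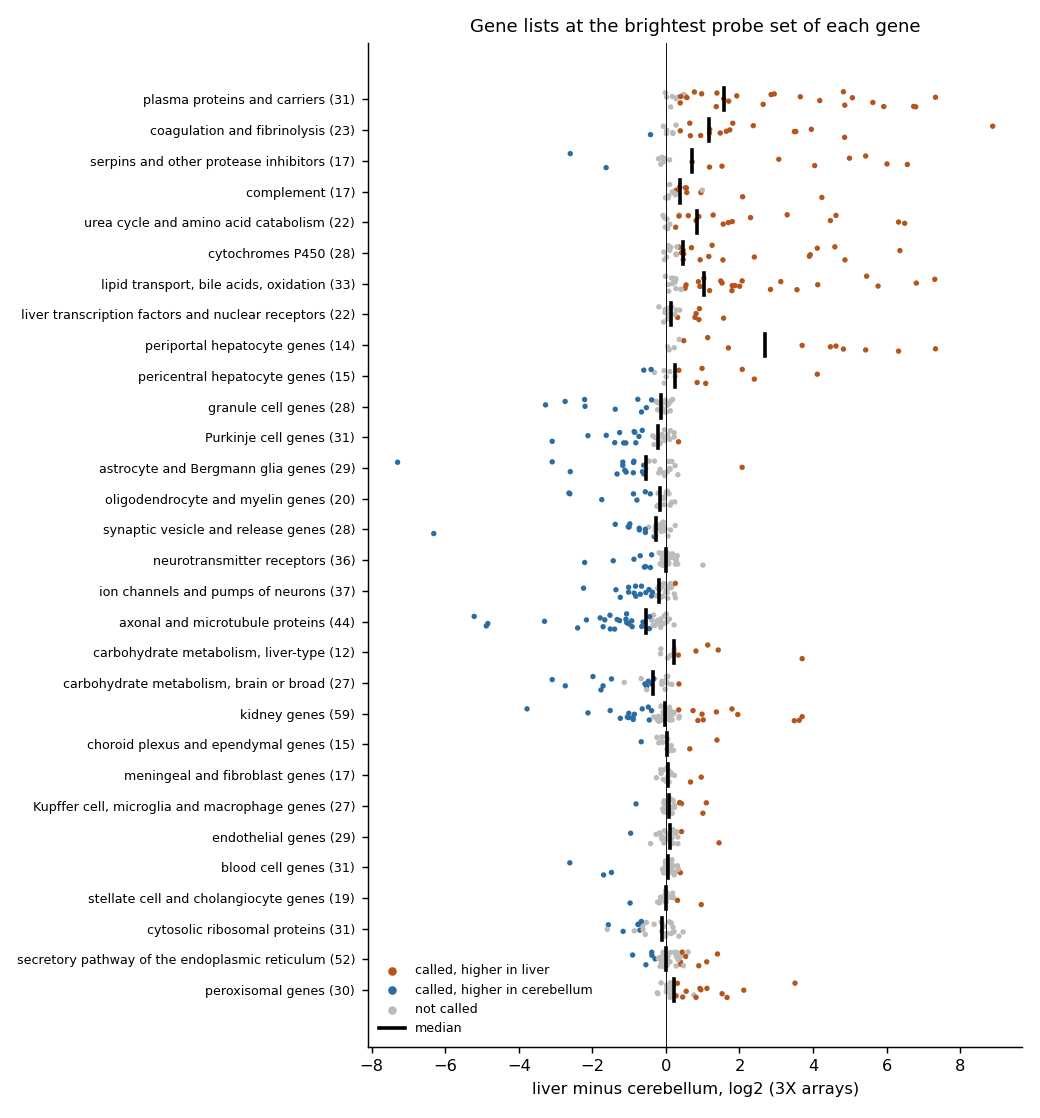
Liver minus cerebellum (horizontal axis, log2, 3 arrays a tissue) for the measured genes of 30 lists, with the number of genes in brackets, each gene at its brightest probe set and black bars at the list medians. Plasma proteins (median 1.57) and periportal genes (2.70) lie to the right, axonal proteins (-0.54) and astrocyte genes (-0.55) to the left, and kidney genes spread both ways around a median of -0.02.

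The upstream sequence of the liver genes is shown to describe the letters shared by a set chosen for being at least 4-fold higher in liver. RefSeq promoters (build GRCm38.p6, 250 bases before the first listed start) were matched by symbol for 6576 of the 8251 genes. GTTAAT, an arm of the palindrome that the hepatocyte factor HNF1 binds, was searched on both strands. It was present upstream of 16 of 67 matched genes at least 4-fold higher in liver (23.9%), of 1 of 42 at least 4-fold higher in cerebellum (2.38%, the gene Rtn1) and of 300 of all 6576 (4.56%). TATAAA, a core of the TATA box, was present in 15 of the 67 (22.4%), 3 of the 42 (7.14%) and 614 of all (9.34%). The sets also differed in base composition, with a median GC content of 48.0%, 62.2% and 58.8% and a median of 3, 19 and 14 CpG dinucleotides, and the shares were not adjusted for it. A match of this length is a description of letters and not a binding site. Windows around the match follow for members described above, 5′ to 3′ on the strand that reads GTTAAT, with the match in capitals. The 3 antitrypsin windows are the same 24 bases, as these genes are copies of each other.
Alb, chr5:90460829-90460852, plus strand: gtaagtatgGTTAATgatctacag
Fabp1, chr6:71199763-71199786, plus strand: ctctcaggaGTTAATgtttgagcc
Fga, chr3:83026101-83026124, minus strand: cggcaggagGTTAATcatcaccct
Fgb, chr3:83049878-83049901, plus strand: ctccctttaGTTAATatttgacat
Serpina1b, chr12:103738201-103738224, minus strand: gtgacattgGTTAATattcactag
Serpina1c, chr12:103904963-103904986, minus strand: gtgacattgGTTAATattcactag
Serpina1e, chr12:103956961-103956984, minus strand: gtgacattgGTTAATattcactag
Pzp, chr6:128526785-128526808, minus strand: tttttaataGTTAATatgttacaa
Pzp, chr6:128526905-128526928, plus strand: tagctcacgGTTAATaatacacag

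The difference in CpG content is seen in the promoters of a gene from each end of the comparison, albumin and dynamin 1. Both are printed in full on the strand of the gene, with each CpG in capitals. Albumin has 2 in its 250 bases (39.2% GC) and dynamin 1 has 20 (55.6% GC).
Alb, chr5:90460620-90460869, plus strand: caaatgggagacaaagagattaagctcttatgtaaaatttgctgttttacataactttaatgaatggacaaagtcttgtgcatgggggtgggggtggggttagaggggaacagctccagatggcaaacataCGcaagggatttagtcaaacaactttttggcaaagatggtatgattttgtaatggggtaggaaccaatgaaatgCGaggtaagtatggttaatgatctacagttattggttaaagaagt
Dnm1, chr2:32353330-32353579, minus strand: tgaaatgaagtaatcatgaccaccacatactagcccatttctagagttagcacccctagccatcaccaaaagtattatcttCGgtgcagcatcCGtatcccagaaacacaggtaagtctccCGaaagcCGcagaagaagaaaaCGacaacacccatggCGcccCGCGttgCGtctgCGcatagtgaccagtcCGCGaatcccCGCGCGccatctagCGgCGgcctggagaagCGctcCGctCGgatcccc

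On the side of the cerebellum, proteins of the axon and its microtubules formed the group with most calls. Of 44 measured genes, 24 were higher in cerebellum and 0 in liver, with a median of -0.54. The tubulin Tuba1a had 12.66, 12.92 and 13.16 in cerebellum against 7.10, 8.19 and 7.82 in liver (-5.21 ± 0.26, 37.1-fold). The neurofilament protein α-internexin (Ina) differed by -4.84 ± 0.15 (28.7-fold), with 9.04, 8.91 and 9.19 against 3.96, 4.56 and 4.09. Tau (Mapt), which binds axonal microtubules, had 8.33, 8.07 and 7.78 against a dim 3.31, 3.48 and 2.74 (-4.88 ± 0.19). Basp1, a protein of growth cones and nerve endings, stood at 5.65, 5.66 and 5.57 against 0.85, 1.13 and 0.51 (-4.80 ± 0.15). At the brighter probe set taken for the list it was called with a smaller difference, -1.07 ± 0.09. With probe sets without a suffix, 15 members of this list in place of 24 were higher in cerebellum.

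Of 28 measured synaptic genes, 10 were higher in cerebellum and 0 in liver, with a median of -0.27. Dynamin 1 (Dnm1), which pinches off vesicles after release, had 10.88, 10.71 and 10.92 in cerebellum against 4.06, 5.54 and 3.98 in liver (-6.31 ± 0.33, 79.5-fold). Snap25, the membrane partner in vesicle fusion, was much closer, with 7.58, 7.80 and 7.27 against 6.15, 7.11 and 5.26 (-1.38 ± 0.37, adjusted p = 0.0271). That call was lost without liver replicate 1 (adjusted p = 0.0687) and without cerebellum replicate 1 (0.0766) or 2 (0.106). Clathrin heavy chain (Cltc) differed by -1.03 ± 0.17 and amphiphysin 2 (Bin1) by -1.0 ± 0.09. Chromogranin B (Chgb), a protein of dense-core granules outside this list, had 9.28, 9.38 and 9.46 against 3.41, 4.13 and 3.50 (-5.69 ± 0.19, 51.7-fold). In Dnm1, Snap25, Chgb and Tuba1a the highest liver array was replicate 2, and all but Snap25 stayed far below cerebellum there.

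The largest difference on this side was that of Ptgds, the prostaglandin D2 synthase of meninges, choroid plexus and oligodendrocytes, which is also a protein of the cerebrospinal fluid. It had 11.10, 11.19 and 10.97 in cerebellum against 3.01, 5.26 and 3.12 in liver (-7.29 ± 0.47, 157-fold). Here too liver replicate 2 stood more than 2 log2 units above the other liver arrays. Other genes at this end were Rtn1, a reticulon of the neuronal endoplasmic reticulum (-3.99 ± 0.23, 15.9-fold), Adarb1, which edits glutamate receptor RNA (-3.73 ± 0.20, 13.3-fold), and Cbx6, a Polycomb protein (-3.65 ± 0.22, 12.6-fold). Nacc2 (-3.35 ± 0.20), the calcineurin subunit Ppp3ca (-3.27 ± 0.19) and Cavin3 of caveolae (-3.25 ± 0.16) followed. Of genes dim in liver, the G protein Gnao1 had 7.75, 7.51 and 7.20 against 2.90, 3.32 and 2.94, and carboxypeptidase E (Cpe), which trims neuropeptides, 3.37, 3.52 and 3.98 against -0.72, -0.37 and -1.17.

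Receptors and channels were mostly not called. Of 36 measured neurotransmitter receptors, 8 were higher in cerebellum and 0 in liver, with a median of 0.01. The largest were the GABA-A subunit Gabra6, described below, the GABA-B receptor Gabbr1 (-1.43 ± 0.12, 2.70-fold) and the AMPA receptor subunit Gria2 (-0.87 ± 0.17). P2rx4, a purine receptor, had the opposite sign and did not pass, with 5.84, 5.86 and 7.17 in liver against 5.16, 5.11 and 5.59 (1.01 ± 0.31, adjusted p = 0.0518). It was called when any one liver array was left out, at 0.57 without replicate 3. Without liver replicate 1 or cerebellum replicate 1, 5 receptors in place of 8 were higher in cerebellum. Of 37 measured ion channels and pumps, 14 were higher in cerebellum and 1 in liver (Kcnj6, 0.26), with a median of -0.18. The liver count was 0 without liver replicate 1 or 2, without any one cerebellum array and without cortex replicate 3. The sodium pump subunits Atp1b3 (-2.24 ± 0.27, 4.72-fold) and Atp1b1 (-1.24 ± 0.12), the sodium channel Scn1a (-1.36 ± 0.14) and the AMPA receptor partner Cacng2 (-1.01 ± 0.17) differed most.

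Markers of the cerebellar cell types were called in part. Of 28 measured granule cell genes, 9 were higher in cerebellum and 0 in liver, with a median of -0.13. The 9 include Ppp3ca, with the largest difference of the list, and Snap25, both described above and not particular to granule cells. Neurod1, a factor of granule cell differentiation, had 6.10, 6.39 and 5.66 in cerebellum and 3.30, 3.52 and 3.11 in liver (-2.74 ± 0.21). Of 31 measured Purkinje cell genes, 12 were higher in cerebellum and 1 in liver (Icmt, 0.34), with a median of -0.23. The liver count was 0 without liver replicate 1 or 2, cerebellum replicate 2 or 3, or cortex replicate 1. Calbindin (Calb1), the calcium buffer of Purkinje cells, had 3.99, 4.43 and 4.59 against 2.03, 2.47 and 2.14 (-2.12 ± 0.16), and the vesicular GABA transporter Slc32a1 differed by -1.62 ± 0.15. These calls set brain against liver and do not by themselves mark cerebellum. The summed linear signal of the granule cell list was 1049 to 1189 in the cerebellum arrays and 1127 to 1387 in the cortex arrays, and that of the Purkinje cell list 2186 to 2222 and 2016 to 2153.

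Glial genes were on the same side. Of 29 measured genes of astrocytes and Bergmann glia, 14 were higher in cerebellum and 1 in liver, with a median of -0.55. The one higher in liver was Apoe, which hepatocytes and astrocytes both release, with 9.79, 9.35 and 9.78 in liver against 7.74, 7.47 and 7.50 (2.07 ± 0.13, 4.21-fold). The gap junction protein connexin 43 (Gja1) of astrocytes had 2.97, 3.36 and 3.55 in cerebellum and values below 0 in every liver array, -2.18, -1.74 and -1.13 (-4.98 ± 0.25). The list counts took Gja1 at another, brighter probe set, where it differed by -0.03 and was not called. Of 20 measured oligodendrocyte genes, 7 were higher in cerebellum and 0 in liver, with a median of -0.16. Myelin basic protein (Mbp) had 9.51, 9.67 and 9.27 against 6.74, 6.73 and 7.07 (-2.64 ± 0.13, 6.21-fold), and carbonic anhydrase 2 (Car2) differed by -2.61 ± 0.17 (6.11-fold). The factor Nkx6-2 (-1.74 ± 0.19) and the surface protein Mog (-0.88 ± 0.11) were also called. Mobp, a protein of compact myelin, had 5.47, 5.35 and 5.43 against 0.19, 0.97 and 0.09 (-5.00 ± 0.19) in a probe set dim in liver. The list counts took Mobp at its brightest probe set, where it differed by -0.21 and was not called.

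**Figure D3:**
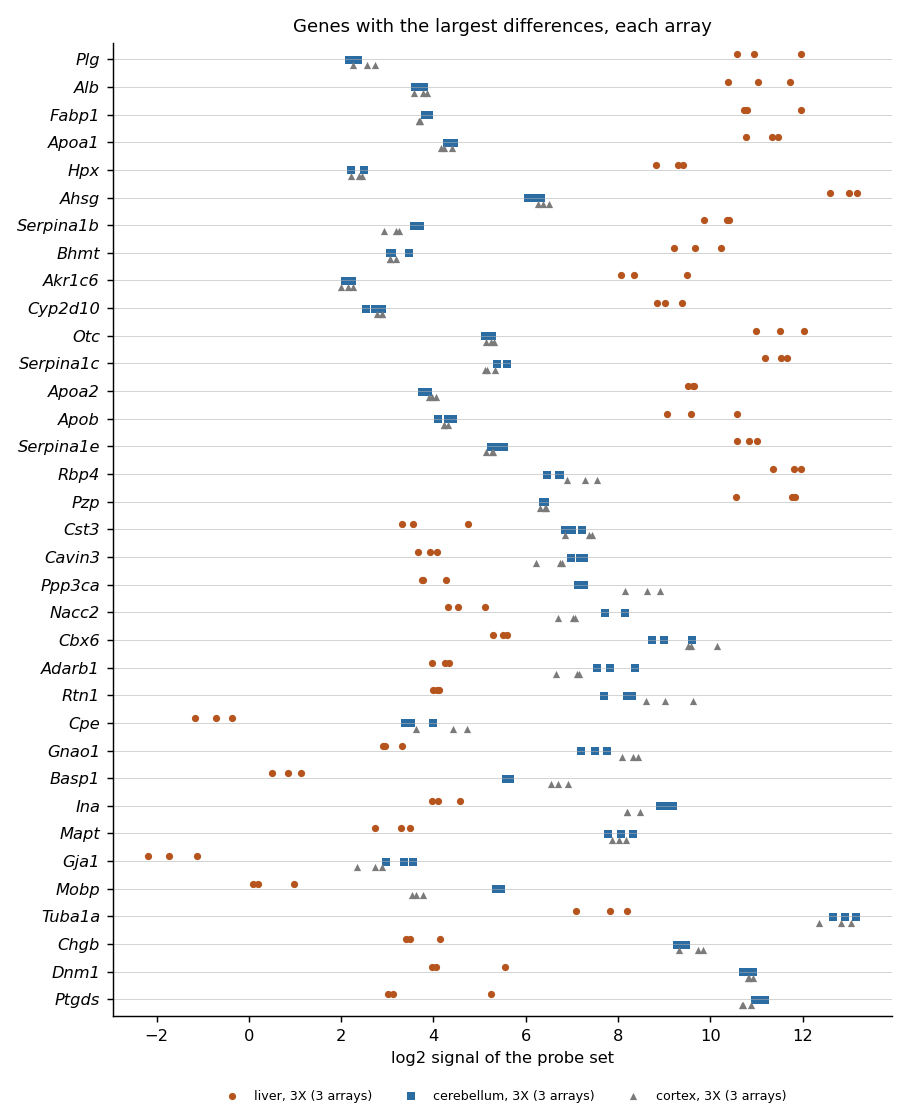
Log2 signal of each 3X array of liver, cerebellum and cortex (horizontal axis) for the genes with the largest differences between liver and cerebellum, ordered by that difference. No liver array overlaps a cerebellum array in any of them, which the choice of genes required, and liver replicate 2 is the point of Ptgds at 5.26 and of Dnm1 at 5.54.

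Several probe sets measured the same gene in many cases, and they often gave different sizes. For the genes with the largest differences the probe set with the largest value that met the rule was taken, so its companions are mostly smaller by choice, while members of the lists were taken at their brightest probe set. Serpina1c thus has 6.01 above and 6.67 in a probe set dim in cerebellum, and Cst3 has -2.60 above and -3.15 in a dimmer probe set. Among the 17 liver genes with the largest differences, 7 had several probe sets and 1 (Apoa2) had a probe set that was not called. Among the 18 cerebellum genes, 15 had several and 6 had a probe set that was not called. Apoa2 differed by 5.77 in one probe set and by 0.03 in the other, whose signals were 2.89 in liver and 2.86 in cerebellum. For Fabp1 the values were 7.31 and 0.48, for Bhmt 6.49 and 0.53, for Adarb1 -3.73 and -0.10, and for Gja1 -4.98 and -0.03. Over the whole table, 67 genes with several probe sets had 1 or more called at least 2-fold higher in liver, and 50 of their 91 other probe sets were called in the same direction and 0 in the opposite one. For the cerebellum side it was 155 genes, with 64 of 214 other probe sets called in the same direction and 4 in the opposite one. Those 4 belonged to Chmp4b, Cox6c, Prkcb and Uhmk1, which are named after their values were seen, and their opposite differences were 0.48, 0.41, 0.34 and 0.31.

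In some genes the probe sets parted at 3X and not at 1X. Mobp had 4 probe sets, with differences of -5.00, -2.32, -0.21 and 0.03 at 3X and -6.59, -3.74, -3.98 and -4.80 at 1X. Gabra6 had -2.21 and -0.11 at 3X against -3.59 and -2.88 at 1X. Plg had 8.89 and 1.41 at 3X against 9.02 and 6.52 at 1X, and Cyp2d10 6.36 and 1.52 against 6.08 and 7.07. In each of these 4 genes all probe sets gave a large difference from 5 µg of RNA, and only some did after 3 amplifications. The place of the probes along the transcripts was not analysed here. In other genes the weak probe set was weak at 1X too, as for Apoa2 (6.10 and -0.04), Fabp1 (8.45 and 0.13) and Chgb (-5.21 and -0.06).

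Some genes set liver apart from cerebellum but not from cortex. A probe set was counted here when it was called against cerebellum, not called against cortex, and called between cortex and cerebellum, the last being the test of the difference between the liver contrasts. These contrasts share the same liver and cerebellum arrays. Of 12422 probe sets, 507 (4.08%) were called against cerebellum and not against cortex, and 44 (0.354%) also passed the test between the brain regions, in which 132 (1.06%) were called. Of the 44, 43 (0.346%) were higher in cerebellum and 1 (0.00805%) was higher in liver. The count depended on single arrays: it was 68 without liver replicate 3, 29 without cerebellum replicate 2 and 28 without cerebellum replicate 3.

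Among the 43 were genes known from cerebellar neurons. Gabra6, the GABA-A subunit of granule cells, had 5.17, 5.82 and 5.27 in cerebellum, 3.28, 3.27 and 3.07 in liver and 3.07, 3.07 and 3.14 in cortex (liver minus cerebellum -2.21 ± 0.15). Zic1, a transcription factor of granule cells, had 4.23, 4.22 and 3.75 in cerebellum, 1.91, 1.96 and 1.73 in liver and 2.18, 2.02 and 2.18 in cortex (-2.20 ± 0.13). In both genes liver and cortex lay together at a dim level and cerebellum stood above them. The calcium buffer parvalbumin (Pvalb) of Purkinje cells and interneurons had 5.83, 5.68 and 5.88 in cerebellum, 4.42, 4.25 and 4.01 in liver and 4.32, 4.43 and 4.38 in cortex (-1.57 ± 0.11). Pcp2, a Purkinje cell protein, had 5.69, 5.48 and 5.54 against 4.60, 4.59 and 4.25 in liver and 4.57, 4.79 and 4.55 in cortex (-1.09 ± 0.12). A second Pcp2 probe set differed by -0.25 and was not called (limma adjusted p = 0.124). The heavy neurofilament Nefh of large axons differed by -1.26 ± 0.11 and Hopx, found in Bergmann glia, by -1.08 ± 0.17.

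Smaller differences of the same pattern were those of the calcium sensor Syt2 of fast synapses (-0.98 ± 0.08), the regional factor En2 (-0.76 ± 0.12, means 2.53 in liver and 3.29 in cerebellum) and Cbln1 (-0.53 ± 0.11, means 2.75 and 3.28), which granule cells release to organise synapses on Purkinje cells. Of 28 measured granule cell genes, 5 were higher in cerebellum than in cortex, and of 31 Purkinje cell genes likewise 5. Over all 12422 probe sets, 132 (1.06%) were called between the brain regions in either direction. Clic4 (-2.01 ± 0.23), Slco3a1 (-1.16 ± 0.13), Spsb1 (-1.11 ± 0.16) and Flii (-1.10 ± 0.15) are genes of broad use that were part of the 43. Another Flii probe set differed by -0.04 and was not called (limma adjusted p = 0.874). The gene higher in liver was Mgll, a lipase that frees glycerol from monoacylglycerols and ends endocannabinoid signals, with 5.62, 5.51 and 5.69 in liver, 5.68, 5.73 and 5.75 in cortex and 5.28, 5.22 and 5.28 in cerebellum (0.35 ± 0.08, adjusted p = 0.0111). Its second probe set differed by -0.15, and as a mean over both the gene was not called (0.10).

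The upstream sequences of the granule cell genes Gabra6 and Zic1 are unlike each other, which is why both are shown. In the 250 bases before the start, Gabra6 has 2 CpG dinucleotides (40.8% GC) and Zic1 has 27 (66.0% GC), with each CpG in capitals below.
Gabra6, chr11:42321073-42321322, minus strand: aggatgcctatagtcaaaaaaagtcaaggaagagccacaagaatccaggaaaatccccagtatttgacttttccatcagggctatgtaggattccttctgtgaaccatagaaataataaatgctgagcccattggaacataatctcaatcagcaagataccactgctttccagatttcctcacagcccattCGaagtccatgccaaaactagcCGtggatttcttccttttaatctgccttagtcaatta
Zic1, chr9:91365769-91366018, minus strand: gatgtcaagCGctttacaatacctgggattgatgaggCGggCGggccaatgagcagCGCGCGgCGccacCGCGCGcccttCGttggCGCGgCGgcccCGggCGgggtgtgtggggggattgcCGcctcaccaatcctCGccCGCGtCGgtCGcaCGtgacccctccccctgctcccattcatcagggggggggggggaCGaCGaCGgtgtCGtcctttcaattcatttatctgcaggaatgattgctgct

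The largest difference of the 43 was not that of a neuronal gene but that of Napsa, an aspartic protease known from kidney and lung. It had 5.68, 5.85 and 6.10 in cerebellum, 2.14, 1.96 and 2.19 in liver and 2.37, 2.61 and 2.35 in cortex (-3.78 ± 0.12, adjusted p = 7.73e-09). Genes known from the kidney recurred in this group: 9 of the 44 probe sets were those of genes on a list of kidney genes. Kap, an androgen-regulated protein of the proximal tubule, had 5.87, 6.13 and 6.03 in cerebellum, 5.02, 4.81 and 5.06 in liver and a mean of 4.96 in cortex (-1.05 ± 0.11). The phosphate transporter Slc34a1 differed by -1.01 ± 0.10 (means 2.58 in liver and 3.59 in cerebellum), uromodulin (Umod), the main urinary protein, by -0.89 ± 0.09, and Miox, which breaks down inositol in the tubule, by -0.86 ± 0.17. The sodium pump regulator Fxyd2 (-0.90 ± 0.10, means 2.73 and 3.63), the secreted peroxidase Gpx3 (-1.01 ± 0.13, means 1.64 and 2.66), Acsm2 (-0.64 ± 0.09, means 2.47 and 3.11) and the kallikrein Klk1b5 (-1.52 ± 0.17, means 2.31 and 3.82) were the others. A second Klk1b5 probe set differed by 0.06 (adjusted p = 0.864), and the suffix of both marks probes shared with related genes. The kidney list was chosen with earlier results of these data known, so its count is not independent evidence.

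Over the whole kidney list, 59 genes were measured, of which 14 were higher in cerebellum than liver and 11 higher in liver, with a median of -0.02. The summed linear signal of the 59 genes was 1610 to 1766 in the 3 cerebellum arrays, 1237 to 1288 in the 3 cortex arrays and 3140 to 4410 in the 3 liver arrays. Against cortex, 15 of the 59 were higher in cerebellum, beside 132 of all 12422 probe sets (1.06%) called between the regions in either direction. Among the 15 were genes that liver uses as well, so that the cerebellum lay between cortex and liver. Fbp1 had a mean of 7.07 in cerebellum and 4.47 in cortex, below the liver mean of 10.77. Kng1, the kininogen, had 4.87 and 3.41 (liver 8.37), Hsd3b2, which makes steroids, 3.82 and 1.28 (liver 4.80), Hao2 2.44 and 0.48 (liver 3.82), and the fatty acid transporter Slc27a2 2.46 and 1.29 (liver 4.26). For Hsd3b2 the call of liver against cerebellum was lost without liver replicate 2 (limma adjusted p = 0.0645). It was also lost without cerebellum replicate 1 (0.0837) or 2 (0.0669). At 1X, the cerebellum array had 8.66 for Kap, 8.51 for Miox and 6.73 for Gpx3, against 4.66, 4.38 and 1.44 in liver and 4.92, 4.67 and 2.51 in cortex. The cerebellum signals of these genes thus stood above both other tissues in the array made with 1 amplification too. The source of kidney transcripts in the cerebellum RNA was not tested, and their part in the results on Fbp1, Kng1, Hsd3b2, Hao2 and Slc27a2 was not tested.

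GTTAAT was present upstream of 6 of the 25 matched genes of the 44 (24.0%), beside 300 of all 6576 (4.56%). The median GC content was 56.0% and 58.8%, the median CpG count 8 and 14, and the shares were not adjusted for it. The 6 were Acsm2, Cga, Miox, Slc34a1, Sparc and Umod, of which Cga and Sparc are not on the kidney list. A second Cga probe set differed by -0.06 and was not called. HNF1 factors are known from kidney tubule as well as liver, and any part of them in these differences was not tested. The windows of 3 kidney genes are given as above, with the match in capitals.
Slc34a1, chr13:55399578-55399601, plus strand: gggggtaaaGTTAATttaatgggg
Slc34a1, chr13:55399550-55399573, minus strand: ttccttccaGTTAATtgctaatct
Miox, chr15:89334322-89334345, minus strand: cctcagcaaGTTAATgtatcagta
Umod, chr7:119479450-119479473, minus strand: gttttgccaGTTAATgtctaactg

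**Figure D4:**
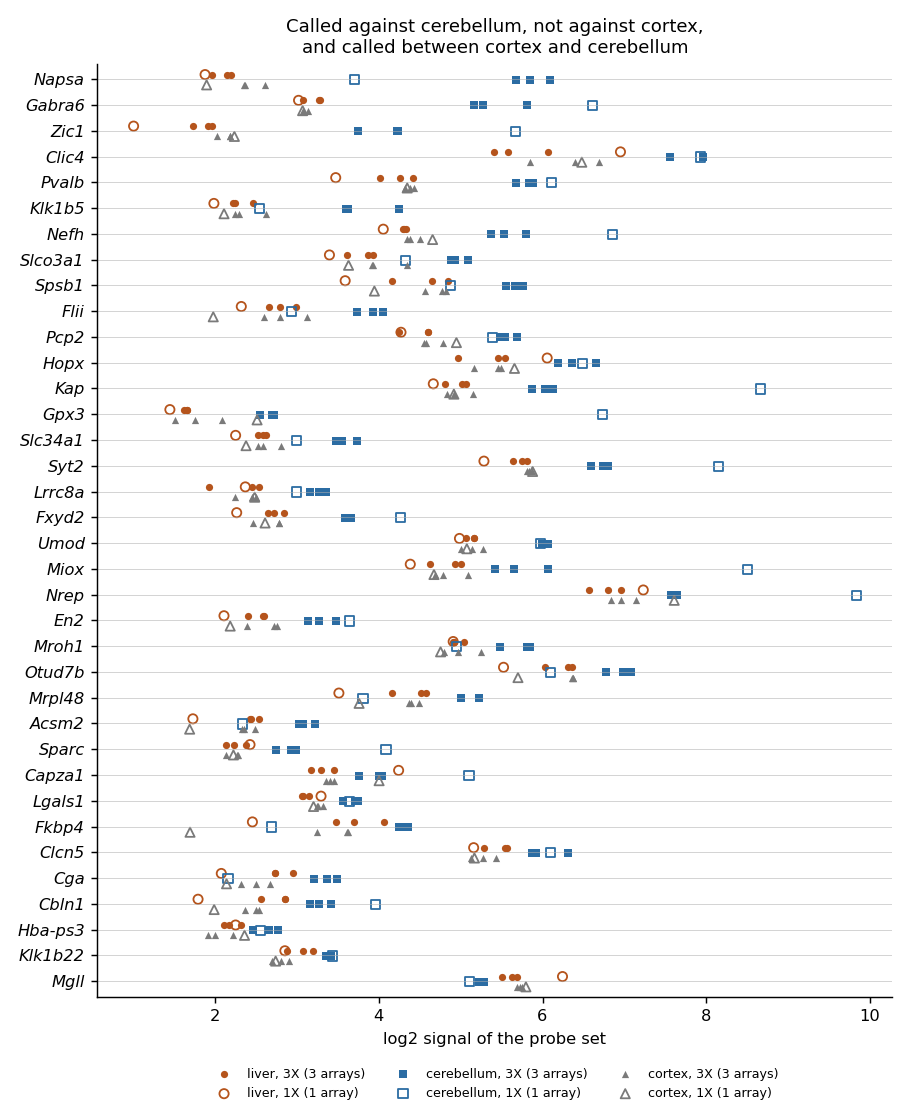
Log2 signal of each array (horizontal axis) for the named genes called between liver and cerebellum and between cortex and cerebellum but not between liver and cortex, with filled marks for 3X and open marks for 1X. Within 3X and within 1X, the cerebellum arrays stand to the right of the liver arrays in all but Mgll. At 1X the tissues stand further apart than at 3X for Kap, Miox and Gpx3.

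Markers of other cells in either tissue moved in few cases. Over all 8251 genes, 6.87% were higher in liver and 10.9% higher in cerebellum. Beside these shares the counts here and in the next paragraph are small, and they are not read as a result about a cell type. Of 27 measured macrophage genes, 4 were higher in liver and 1 in cerebellum, with summed linear signals of 1563 to 1724 in liver and 1473 to 1698 in cerebellum. Clec4f, a lectin of Kupffer cells, was higher by 1.10 ± 0.16, Mpeg1 by 1.01 ± 0.17, Cd5l by 0.42 ± 0.09 and C1qc by 0.38, and Ctss differed by -0.81 ± 0.14. Of 29 endothelial genes 2 were higher in liver, Eng (1.44 ± 0.18) and the sinusoidal Stab1 (0.42 ± 0.11), and 1 in cerebellum, Ednrb (-0.96 ± 0.12), and without liver replicate 3 the counts were 4 and 2. Of 31 blood cell genes 1 was higher in liver (Elane, 0.39) and 3 in cerebellum, Car2, which oligodendrocytes share, and the globins Hbb-b2 (-1.69 ± 0.25) and Hba-a1 (-1.48 ± 0.14). Without liver replicate 1 the calls of Stab1 (adjusted p = 0.0819) and Elane (0.0586) were lost, as was that of Stab1 without cerebellum replicate 2 (0.0983) and that of Elane without cerebellum replicate 3 (0.0760). The blood list summed to 1309 to 1349 in liver and 1493 to 1577 in cerebellum, and the part of blood in any result was not tested.

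Of 17 meningeal genes, 2 were higher in liver (Dcn, 0.96 ± 0.23, and Slc6a13, 0.67 ± 0.09) and 0 in cerebellum. Of 15 choroid plexus genes, 2 were higher in liver, transthyretin (Ttr, 1.39 ± 0.29) and F5 (0.65 ± 0.15), both of which hepatocytes make, and 1 in cerebellum, Calml4 (-0.67 ± 0.11). Transthyretin, a carrier of thyroid hormone and retinol made by choroid plexus in the brain, stood at 10.59, 10.76 and 12.02 in liver and at 9.77, 9.58 and 9.85 in cerebellum. At 1X it stood at 13.03 in liver and 9.01 in cerebellum, a difference of 4.02. Of 19 genes of stellate cells and bile ducts, 2 were higher in liver (Dcn and Krt8, 0.32 ± 0.08) and 1 in cerebellum (Acta2, -0.97 ± 0.20). Some of these calls rested on single arrays. Without cerebellum replicate 2 the adjusted p was 0.0759 for Dcn, 0.0590 for F5 and 0.0988 for Krt8. F5 was also lost without cerebellum replicate 3 (0.0563), and Krt8 without liver replicate 1 (0.0854) or cerebellum replicate 1 (0.0741).

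The 1X arrays gave nearly the same directions with other sizes. Of the 661 probe sets called and at least 2-fold at 3X, 658 had the same sign at 1X. Those higher in liver were larger at 1X in 237 of 269 cases, with a median of 3.66 at 1X against 1.87 at 3X. Those higher in cerebellum were larger at 1X in 174 of 392 cases, with medians of 1.48 and 1.44. A test of the difference between the 3X and 1X contrasts, in which each lone 1X array is assumed to vary like the 3X replicates, called 1255 probe sets (10.1%), of which 529 (4.26%) were also called at 3X. Of the 1255, 994 had the same sign and were larger at 1X, 17 had the same sign and were larger at 3X, and 244 had opposite signs. Of those 244, only 17 were also called in liver against cerebellum at 3X. Input and number of amplifications changed together and cannot be told apart.

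Single probe sets with the largest gaps between 3X and 1X are given next. Snap25 had 2.99 in liver and 11.43 in cerebellum at 1X, while the 3X arrays lay at 5.26 to 7.11 and 7.27 to 7.80, so the tissues lay closer together. Vsnl1, a neuronal calcium sensor, had 6.47 and 12.56 at 1X and a 3X difference of -1.34 ± 0.14, with 7.83, 8.11 and 7.80 in cerebellum. Apoa5, which acts in triglyceride clearance, had 8.56 in liver at 1X and 3.70, 3.57 and 4.43 at 3X in the same probe set. Its other probe sets differed by 2.97 and 1.88 at 3X and by 4.36 and 3.56 at 1X. Orm1, an acute-phase plasma protein, had 7.39 at 1X and 2.63, 2.46 and 2.65 at 3X, where its difference was 0.52 ± 0.10. In these probe sets a small difference at 3X stands beside a large one at 1X. At 1X, 1651 probe sets differed at least 2-fold, and 647 of them were not called at 3X.

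**Figure D5:**
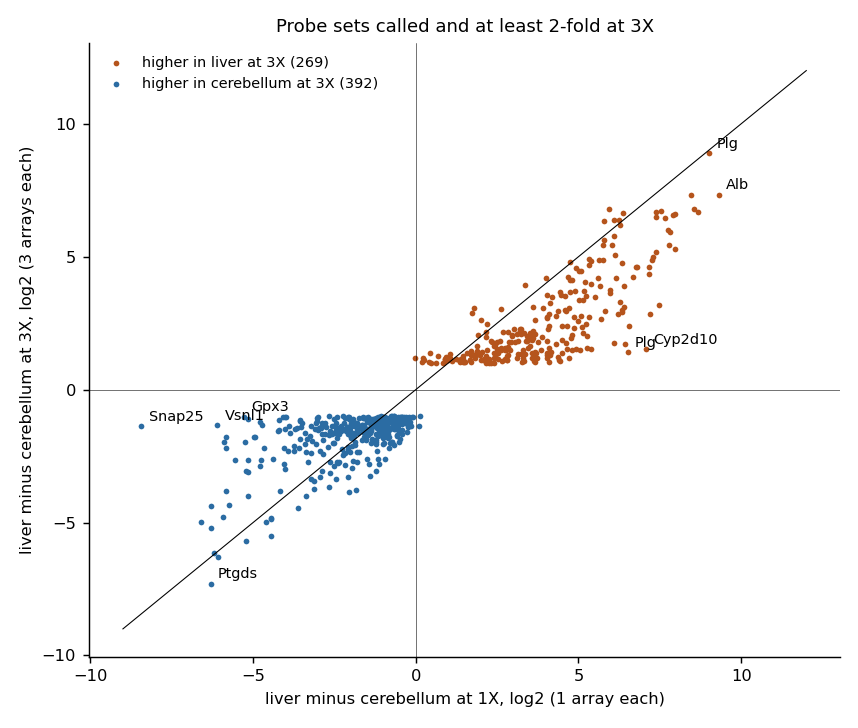
Liver minus cerebellum at 3X (vertical axis, log2, 3 arrays a tissue) against the same difference at 1X (horizontal axis, log2, 1 array a tissue) for the 661 probe sets called and at least 2-fold at 3X, with the line of equal size. Probe sets higher in liver lie mostly on the side of the larger 1X difference, and Snap25 lies near -8.43 at 1X and -1.38 at 3X.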

How the data were processed

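Values were taken from the deposited series matrix, in which the authors gave log2 signals made with RMA, per the submitters' processing notes. Those notes do not state its version or log base, or whether it was run on all 12 arrays at once. Base 2 was read from the span of the values (-2.183 to 13.18 in the 6 arrays). Of 12488 probe sets, 66 manufacturer's controls were left out. Genes were named from the platform annotation for the 10833 probe sets with 1 symbol.

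The 9 arrays at 3X were fitted as group means in R 4.3.3 with limma 3.58.1, and contrasts were tested two-sided after eBayes. For 3X against 1X all 12 arrays were fitted as 6 group means. P-values were adjusted by Benjamini-Hochberg over 12422 probe sets. The precision is limited by the number of arrays. Named genes were the 12 largest differences each way with the dimmer tissue at or above the median and 6 each way below it, 12 each way among the region-dependent, up to 4 per list and the 6 largest 3X against 1X differences. Further region-dependent genes and kidney genes were named after their values were seen. Members and lists were chosen with earlier results of these data known. Same-numbered arrays were checked for pairing. On simulated arrays, 76% of changes of 0.5, 94% of 1 and 100% of 2 or 4 were recovered in the liver and cerebellum contrast of 12422 probe sets, with 3.1% of calls false. For 3X against 1X it was 4%, 54%, 88% and 98%, with 4.7% false. The simulation changed 200 probe sets and drew independent noise with the same spread in every tissue. Unequal spread of the tissues, shifts of a whole array and changes in as many probe sets as were called here were not simulated. The shares therefore describe the simulated arrays and not the error of the calls above. Alternatives were other scalings, filters, spread settings, sets of arrays and a block.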

Additional observations from a re-analysis of the deposited data

Results flagged for a closer look

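The difference between liver and cerebellum was itself different at 3X and 1X in 1255 probe sets by limma's test, with each lone 1X array assumed to vary like the 3X replicates. Values below are the 3X difference minus the 1X difference in log2 units. No formal test for a single outlying array was made, since each group has 3 arrays.

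Among liver genes the largest gaps were those of Cyp2d10 (-5.54), Apoa5 (-5.28), Plg (-5.11) and Orm1 (-4.91). For Cyp2d10, Apoa5 and Plg these are single probe sets: the other Cyp2d10 probe set had a gap of 0.28 (adjusted p = 0.755), the Plg probe set with the largest difference -0.13 (0.971), and the other Apoa5 probe sets -1.39 (0.00320) and -1.69 (0.0788). Alb (-1.99), Apoa1 (-1.75), Serpina1b (-1.35), Serpina1e (-2.35), Pzp (-2.31) and both probe sets of Serpina1c (-1.74 and -2.01) were also larger at 1X. Mgll (-0.79) and the kidney transporter Slc22a18 (-1.24) shared that direction.

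Among genes higher in cerebellum, a positive value means a larger difference at 1X. Snap25 (7.06) and Vsnl1 (4.75) led. The cerebellar genes Zic1 (2.47), Syt2 (1.89), Cbln1 (1.64), Nefh (1.54), Gabra6 (1.38) and Pvalb (1.07) followed, with Nrep (1.76), Mobp (1.59), Basp1 (1.13) and Sparc (1.03). The kidney genes Gpx3 (4.27), Miox (3.27), Kap (2.95) and Fxyd2 (1.11) had larger cerebellum signals at 1X. Napsa (-1.95) and Cavin3 (-1.84) went the other way, with a larger difference at 3X. No explanation of these gaps was tested.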

How the results depend on the processing

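The alternatives were other scalings, filters, spread settings, sets of arrays and leaving out each array. Of 2937 comparisons of 168 named probe sets with an alternative, 2852 kept direction and call, 66 lost the call, 19 gained it and 0 reversed. Of all 2059 called probe sets, 0 turned their sign under the alternatives that keep single probe sets, and turned signs were not counted for the mean value per gene. With probe sets above the median level, which tests fewer of them, 1319 in place of 2059 were called, 516 in place of 792 higher in liver, 803 in place of 1267 higher in cerebellum, 28 in place of 44 in the region-dependent group and 782 in place of 1255 for 3X against 1X. Probe sets without a suffix gave 429 in place of 661 at least 2-fold and 27 in place of 44, and a mean value per gene gave 415 in place of 661, both with fewer units tested. Leaving out single arrays gave 1439 to 2511 called, 618 to 727 at least 2-fold, 530 to 1026 higher in liver, 909 to 1485 higher in cerebellum, 28 to 68 region-dependent and 1105 to 1834 for 3X against 1X. Liver replicate 3 left out gave the highest of each of these. Quantile normalization gave 2073 called, median centring 2056 and the fit of the 6 arrays alone 1716.

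Same-numbered liver and cerebellum arrays did not deviate together throughout: the correlations of their deviations were 0.27, -0.01 and 0.29. Liver replicate 1 with cerebellum replicate 3 gave -0.28, and liver replicate 3 with cerebellum replicate 1 gave -0.30. A shared effect of the replicate number was not tested. The labels state no batch, so the numbers were not taken as pairs in the main fit and a replicate block was an alternative. The replicate block gave 2225 called, 676 at least 2-fold and 50 region-dependent, with 11 in place of 6 ribosomal protein genes higher in cerebellum. Liver replicate 2 correlated best with cerebellum replicate 1 (0.13). Dim signal is a limit, since 1014 of the 2059 calls had a tissue below the median level.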
